A study of Mus musculus with 2 samples.

Results

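The nuclei described here are the uroplakin-low epithelial nuclei of the newborn mouse ureter, 1200 of the 3726 epithelial nuclei in 2 single-nucleus RNA sequencing libraries. They were chosen from their own counts. An epithelial nucleus had at least 1 unique molecular identifier (UMI, the tag that marks 1 captured RNA molecule) for 3 or more of 12 epithelial genes and for at most 1 of 7 mesenchymal and endothelial genes. Of the epithelial nuclei of both libraries together, those at or below the median uroplakin share, 0.604% of UMIs summed over Upk1a, Upk1b, Upk2 and Upk3a, were kept. Nuclei with 3 or more summed UMIs of Krt5, Lamb3, Itgb4 and Itga3, with 2 or more of the cycling genes Mki67, Top2a and Cenpf, or with 2 or more of Cdh20, Htr4, Ksr2, Gm28856 and Pcbp3 were then dropped. The levels of these genes in the chosen nuclei follow from that choice and are no result.

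The study compared the ureters of newborn (postnatal day 0) DNp63cKO mice with those of control mice. DNp63cKO mice carried Pax2-cre on 1 allele, floxed DNp63 on both alleles and the R26mTmG reporter on 1 allele. Pax2-cre acts in the duct epithelium that gives rise to the lining of the ureter, and DNp63 is the p63 isoform, made from Trp63, that lacks the first transactivation domain. The control mice are labelled wt, so the groups may differ in cre and in the reporter as well as in DNp63. Frozen ureters of 14 DNp63cKO and 13 control mice were thawed and pooled by genotype, and each pool gave 1 library. A difference between the groups is therefore a difference between 2 libraries, with no replicate and no test, and every interval below is an exact 95% interval that covers counting error only.

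The urothelium is a layered epithelium: basal cells lie on the basement membrane, intermediate cells lie above them, and superficial cells carry plaques of uroplakins on the side facing the lumen. In such epithelia DNp63 is the main p63 protein of the basal cells and acts on genes of adhesion and differentiation. Intermediate cells make less uroplakin than superficial cells and are usually defined by position and by the absence of strong basal markers, not by a marker of their own.

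The label of the set, intermediate urothelium, came with 4 marker genes. Ppp2r2b encodes a regulatory B subunit of protein phosphatase 2A (PP2A), Ptprd a receptor-type tyrosine phosphatase, and Fermt1 kindlin-1, which binds integrin tails and activates integrins. Mir205hg is the host transcript of miR-205, a microRNA of stratified epithelia that p63 is known to activate. In GENCODE M21 (GRCm38) the Mir205hg gene spans chr1:193507238-193510174 on the minus strand, and both mature arms of miR-205 lie in one of its exons, miR-205-5p at chr1:193507503-193507524 and miR-205-3p at chr1:193507467-193507488. The counts are of the long host transcript, and the mature microRNA was not measured. The arms are shown because Mir205hg is the marker that makes them. Their RefSeq sequences (GRCm38.p6) are given 5′ to 3′, with the seed, bases 2 to 8, in capitals.
miR-205-5p: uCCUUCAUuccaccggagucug
miR-205-3p: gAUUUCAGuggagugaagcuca

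RefSeq promoter windows, 250 bases before to 50 bases after the gene start, were present for 2 of the 4 markers and are shown 5′ to 3′ on the gene's strand. Capitals mark CATG, which reads the same on both strands and is only 1 form of the core of the p53-family motif. Other forms of the core were not searched. The Mir205hg window, chr1:193510161-193510460 (minus strand), held 0 copies of CATG. The Fermt1 window, chr2:132945987-132946286 (minus strand), held 1 copy at its first base. Of all 32851 windows, 61.1% held at least 1 CATG and 0.712% held CATGNNNNNNCATG, the paired form, which neither of these windows held.
Mir205hg: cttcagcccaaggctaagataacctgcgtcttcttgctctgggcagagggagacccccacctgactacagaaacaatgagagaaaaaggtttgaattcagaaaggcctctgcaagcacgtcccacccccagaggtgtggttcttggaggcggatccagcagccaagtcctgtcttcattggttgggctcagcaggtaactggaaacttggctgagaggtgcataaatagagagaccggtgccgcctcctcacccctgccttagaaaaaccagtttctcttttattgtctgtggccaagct
Fermt1: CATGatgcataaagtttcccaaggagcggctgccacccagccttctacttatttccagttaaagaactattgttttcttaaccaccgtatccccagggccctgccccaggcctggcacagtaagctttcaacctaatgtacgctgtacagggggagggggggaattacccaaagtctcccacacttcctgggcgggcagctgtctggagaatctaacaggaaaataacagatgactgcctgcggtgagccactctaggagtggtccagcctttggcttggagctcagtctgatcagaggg

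After filtering, the DNp63cKO library held 5491 nuclei and 9777711 UMIs and the control library 8889 nuclei and 15302722 UMIs. The uroplakin-low nuclei were 223 of 1004 epithelial nuclei in DNp63cKO and 977 of 2722 in control. Their summed UMIs came to 259778 in DNp63cKO and 1044416 in control. The median uroplakin-low nucleus had 1107 UMIs and 865 genes in DNp63cKO, against 979 UMIs and 794 genes in control. The 2 libraries shared 58 barcodes, which 1 DNp63cKO and 5 control members carried. RNA free in the suspension was estimated at 28.7% of the UMIs in DNp63cKO members and 21.4% in control members, from 16 smooth muscle and fibroblast genes. The estimate was the median ratio of each gene's share of UMIs in members to its share in all filtered nuclei of the library. All filtered nuclei thus stood in for free RNA, and no empty barcodes were used. RNA of these genes from doublets or from the members themselves was counted as free.

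The uroplakin-low nuclei took a smaller share of the epithelium in the DNp63cKO library. They were 22.2% of epithelial nuclei in DNp63cKO (19.7 to 24.9%), against 35.9% in control (34.1 to 37.7%), a difference of -13.7 percentage points (-16.8 to -10.4, combined from the 2 exact intervals). Of all epithelial nuclei, 41.3% in DNp63cKO and 53.2% in control lay at or below the pooled uroplakin median. Of those, 53.7% in DNp63cKO and 67.4% in control passed the drops. The basal sum dropped 170 nuclei in DNp63cKO and 381 in control, 41.0% and 26.3% of those at or below the median. The cycling genes marked 54 and 114 (13.0% and 7.87%), and the Cdh20 set marked 5 and 45 (1.20% and 3.11%), with some nuclei marked more than once. The share depends on how the median was set: with a median taken within each library it was 29.1% in DNp63cKO and 33.7% in control, a difference of -4.60 points. At the threshold itself the last member had 0.604433% uroplakin UMIs and the next nucleus outside 0.604595%, with 86 members within 10% below and 59 uroplakin-high nuclei within 10% above.

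Within the set the DNp63cKO nuclei lay nearer to the threshold, with a median of 0.341% uroplakin UMIs in DNp63cKO and 0.287% in control. Nuclei marked as mesenchyme, which should make no uroplakin, had medians of 0.160% in DNp63cKO and 0.154% in control, and the uroplakin-high nuclei had 1.27% and 1.05%. No uroplakin UMI at all was found in 19 DNp63cKO and 69 control members. Of the basal sum, 121 DNp63cKO and 433 control members had 0 UMIs, 59 and 321 had 1, and 43 and 223 had 2. Outside the set, 197 nuclei at or below the uroplakin median had 3 such UMIs.

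In summed counts the 4 marker genes stood higher in these nuclei than in the uroplakin-high epithelium, but not clearly higher than in the basal-marked epithelium. Levels below are CPM, the counts of a gene scaled to the same total, from the UMIs summed over a group of nuclei in 1 library, and log2 ratios are of CPM + 5. Over the uroplakin-high nuclei that passed the same drops, the log2 ratios of Ppp2r2b were 0.89 in DNp63cKO and 1.44 in control, of Ptprd 1.75 and 2.09, of Fermt1 2.53 and 1.05, and of Mir205hg 1.25 and 1.08, in the same order. The basal-marked nuclei were the epithelial nuclei of any uroplakin share with 3 or more UMIs of the basal sum that were neither cycling nor marked by the Cdh20 set. They numbered 147 in DNp63cKO, of which 14 lay above the uroplakin median, and 405 in control, of which 87 did. Over them the same ratios lay between -0.37 and 0.75. The groups differed in depth. The median basal-marked nucleus had 1358 UMIs in DNp63cKO and 1529 in control, and the median uroplakin-high nucleus 1481.5 and 1620, against 1107 and 979 in members. The basal drop is a count of UMIs, so a shallow nucleus of the basal layer can pass it and stay among the members. Of all 6702 genes with 50 or more UMIs over the members, called measured below, 9.36% were over 1.5-fold higher in members than in uroplakin-high nuclei in both libraries, and 1.84% were so over basal-marked nuclei.

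Ppp2r2b had 162 CPM in DNp63cKO members (117 to 219) and 352 CPM in control members (317 to 390), a log2 ratio of -1.10 (-1.62 to -0.66). It was the only marker past 1.5-fold between the genotypes. Its intervals in the 2 libraries did not overlap, and neither did those of Ptprd and Mir205hg. The share of all measured genes with such intervals is not given here. Ptprd had 874 CPM in DNp63cKO (764 to 995) and 1254 CPM in control (1187 to 1324), a log2 ratio of -0.52 (-0.73 to -0.32). Ptprd also had 443 CPM in DNp63cKO and 477 CPM in control mesenchyme-marked nuclei, above its 256 and 291 CPM in uroplakin-high nuclei. Fermt1 had 119 CPM in DNp63cKO (81.1 to 169) and 146 CPM in control (123 to 171), with overlapping intervals. Its log2 ratio was -0.28 (-0.89 to 0.28) in members, and -1.76 (-3.05 to -1.16) in uroplakin-high nuclei, where it had 16.5 CPM in DNp63cKO and 67.6 CPM in control. Mir205hg had 350 CPM in DNp63cKO (282 to 430) and 485 CPM in control (444 to 530), a log2 ratio of -0.46 (-0.81 to -0.15). That direction turned to 0.42 among nuclei with 4 or more epithelial markers and no mesenchymal or endothelial one, which left 39 DNp63cKO and 275 control members. The measured genes as a whole had a median log2 ratio of -0.04.

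**Figure D1:**
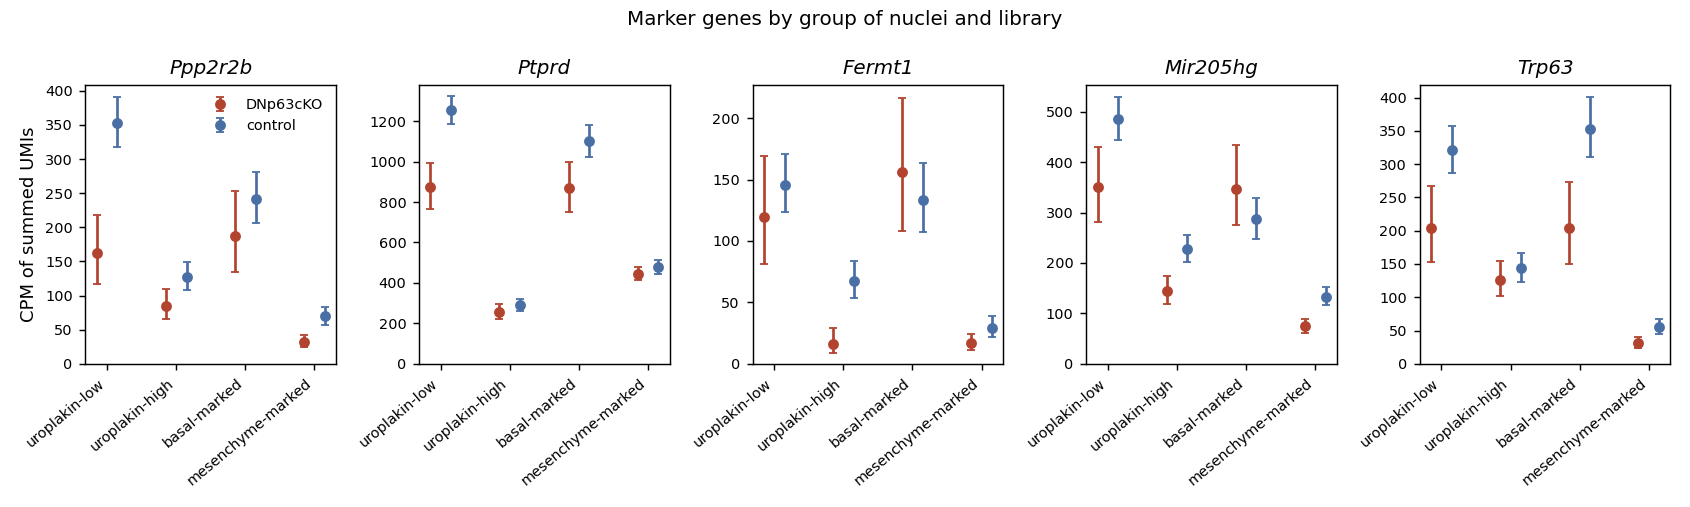
CPM of the 4 marker genes and of Trp63 in 4 groups of nuclei (horizontal axis), with DNp63cKO in red to the left of control in blue; bars are exact 95% Poisson intervals. Ppp2r2b in uroplakin-low nuclei has 162 CPM in DNp63cKO and 352 CPM in control, and each marker is higher in uroplakin-low than in uroplakin-high nuclei in both libraries.

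After thinning every nucleus to 700 UMIs, which kept 196 DNp63cKO and 796 control members, at least 1 of the 4 markers was detected in 55.1% of DNp63cKO members (47.9 to 62.2%) and 70.5% of control members (67.2 to 73.6%). At least 2 markers were detected in 11.2% of DNp63cKO (7.17 to 16.5%) and 24.2% of control members (21.3 to 27.4%). The mesenchyme-marked nuclei, of shallower depth (median 899 and 782 UMIs before thinning), gave 28.8% and 32.7% for at least 1 marker and 2.49% and 5.48% for at least 2. Basal-marked nuclei gave 64.2% in DNp63cKO (55.6 to 72.2%) and 64.1% in control for at least 1 marker, and 26.3% (19.1 to 34.5%) and 21.8% for at least 2. Uroplakin-high nuclei gave 27.3% and 37.6% for at least 1 marker, and 2.82% and 6.62% for at least 2. Ppp2r2b alone was in 9.18% of DNp63cKO members (5.53 to 14.1%) and 5.88% of DNp63cKO uroplakin-high nuclei (3.84 to 8.56%), with overlapping intervals. In control it was in 17.2% of members and 7.27% of uroplakin-high nuclei. For Ptprd alone the thinned shares were 31.1% of DNp63cKO and 47.1% of control members, against 23.6% and 23.4% of mesenchyme-marked nuclei. For Fermt1 they were 9.18% of DNp63cKO and 8.04% of control members, against 1.20% and 2.08% of mesenchyme-marked nuclei. Without thinning, Ptprd was seen in 45.3% of DNp63cKO and 53.8% of control members and Fermt1 in 11.7% and 13.9%.

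By their medians, the lists of layer markers stood further from the uroplakin-high than from the basal-marked nuclei. Of 12 measured basal-layer genes, 7 were over 1.5-fold higher in members than in uroplakin-high nuclei in both libraries, against 9.36% of all measured genes. The list medians were 1.27 in each library. Against basal-marked nuclei the medians were -0.53 in DNp63cKO and -0.26 in control, and 6 of the 12 were over 1.5-fold lower in DNp63cKO and 0 in control. Of all measured genes, 12.8% were that much lower than in basal-marked nuclei in DNp63cKO and 2.81% in control. Of 12 measured superficial-layer genes, 7 were over 1.5-fold lower than in uroplakin-high nuclei in both libraries, against 4.18% of all measured genes. Uroplakin share divided these groups, so superficial genes that go with the uroplakins are lower in members by the choice. The medians of the superficial list against basal-marked nuclei were 0.02 in DNp63cKO and -0.17 in control. All 14 listed summed to 11113 CPM in DNp63cKO and 9419 CPM in control members, 22428 and 16489 CPM in uroplakin-high nuclei, and 12837 and 11058 CPM in basal-marked nuclei. The label "intermediate" was thus not set apart from the basal layer by these lists in control, and the nuclei are called uroplakin-low here.

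The genes that stood furthest above the uroplakin-high nuclei included Jag2, a Notch ligand, with 208 CPM in DNp63cKO and 237 CPM in control members, against 21.9 and 47.0 CPM in uroplakin-high nuclei. Npnt, the matrix protein nephronectin, had 192 and 143 CPM in members, against 34.3 and 31.3 CPM. H19, an imprinted non-coding RNA of growing tissue, had 335 and 246 CPM, against 48.0 and 61.0 CPM. Lama3, the α3 chain of laminin 332 in the basement membrane, had 92.4 and 126 CPM, against 19.2 and 28.01 CPM. The other genes so named were Ulbp1, Eif4e3, Gprc5b, Hs3st5, Edaradd, Rrm2, Ptges and Kcnn4.

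The genes that stood furthest below the uroplakin-high nuclei included Psca, a surface antigen of superficial urothelium. It had 423 CPM in DNp63cKO and 288 CPM in control members, against 2356 and 1384 CPM in uroplakin-high nuclei. Acer2, an alkaline ceramidase, had 728 and 439 CPM in members, against 2917 and 2030 CPM. Bpifb1, a secreted defence protein, had 42.3 and 71.8 CPM, against 529 and 416 CPM. Ndrg2, Myh14, Plcd1, Paqr6, Rhov, Sp6, Pak3 and Fam25c were also in this group. Over all measured genes 627 were over 1.5-fold higher in members than in uroplakin-high nuclei in both libraries and 280 lower, 4.18% of those measured. A measured gene has 50 or more UMIs over the members, which leaves out genes that are low there. With genes that reached 50 UMIs in uroplakin-high nuclei taken in as well, a check added after the data were seen, 627 of 8033 genes were higher and 435 lower.

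Against basal-marked nuclei 123 genes were over 1.5-fold higher in both libraries and 67 lower, 1% of those measured. The 5 furthest above, listed after their values were seen, were Ldb2, Pcdh9, Ebf1, Zeb2 and Dmac2. Zeb2, a transcription factor of mesenchyme, had 177 CPM in DNp63cKO and 64.2 CPM in control members, against 57.9 and 26.0 CPM in basal-marked nuclei, and 888 and 771 CPM in mesenchyme-marked nuclei. Ldb2, Pcdh9 and Ebf1 also stood higher in mesenchyme-marked nuclei than in members, such as Pcdh9 at 607 and 428 CPM against 92.4 and 39.3 CPM. Dmac2 stood lower there, at 19.1 and 19.0 CPM against 50.04 and 38.3 CPM. Of the 123 genes, 41 (33.3%) stood higher in mesenchyme-marked nuclei than in members in both libraries, against 22.4% of all measured genes. Among the 67 lower genes 24 (35.8%) did so too. Those genes were chosen for low levels in members, which by itself favours a higher level elsewhere. The shares of the higher and the lower genes can therefore not be set against each other. The 5 furthest below basal-marked nuclei were Lamb2, Myh14, Ostc, Atp6v1g1 and Reep5.

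Trp63, the targeted gene, was lower in DNp63cKO members but well above zero. It had 204 CPM in DNp63cKO (153 to 267) and 321 CPM in control (287 to 357), a log2 ratio of -0.64 (-1.10 to -0.23). Mesenchyme-marked nuclei of the same libraries had 31.0 and 55.0 CPM. The counts join all isoforms and the whole transcript, and the deleted part is not given in the sources used here, so UMIs from outside it check nothing. In nuclei with 0 UMIs of the basal sum, a split made after the data were seen, the log2 ratio of Trp63 was -1.05 (-1.76 to -0.45), and in nuclei with 1 or 2 it was -0.28 (-0.90 to 0.29). The difference between these splits was not tested.

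Between the genotypes, 481 of the measured genes were over 1.5-fold higher in DNp63cKO members (7.18%) and 768 were over 1.5-fold lower (11.5%), 18.6% in all. For 329 of the higher and 401 of the lower genes the counting interval excluded an equal level. The balance depended on thinly counted genes. With 20 or more UMIs as the minimum 1077 were higher and 1406 lower, and with no minimum it turned, at 3004 higher and 2745 lower. That turn is tied to depth, 259778 UMIs in DNp63cKO and 1044416 in control members. With 5 CPM added, a single DNp63cKO UMI against none in control passed 1.5-fold, and the reverse did not. The turn is therefore not read as a result about the genes.

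Among the genes furthest above control was Krt14, the type I keratin that pairs with Krt5 in basal cells. It had 150 CPM in DNp63cKO members (107 to 205) and 24.9 CPM in control members (16.3 to 36.5), a log2 ratio of 2.38 (1.84 to 3.37). Of the thinned nuclei, 9.69% of DNp63cKO (5.94 to 14.7%) and 1.88% of control members (1.06 to 3.09%) had a Krt14 UMI, against 1.29% and 0.283% of mesenchyme-marked nuclei. Before thinning these shares were 11.2% and 2.15% of members. Basal-marked nuclei had 436 CPM in DNp63cKO and 39.1 CPM in control. Krt5 itself, which the choice of nuclei used, had 92.4 and 106 CPM in members. The log2 ratio of Krt14 was positive under each of the 16 alternative treatments of the data, from 1.92 to 3.82.

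A pair of gasdermin C genes, members of a family of pore-forming proteins, was also higher. Gsdmc2 had 635 CPM in DNp63cKO and 187 CPM in control members, a log2 ratio of 1.74 (1.46 to 2.07). Gsdmc3 had 450 CPM in DNp63cKO and 124 CPM in control, a log2 ratio of 1.83 (1.49 to 2.24). Both are close copies of each other and of further gasdermin C genes, so that reads may have been split between them. Their log2 ratios were larger in uroplakin-high nuclei, 3.27 for Gsdmc2 and 3.07 for Gsdmc3. Gsdmc2 had 136 and 46.5 CPM in mesenchyme-marked nuclei of DNp63cKO and control.

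Sema3e, a secreted semaphorin, had 142 CPM in DNp63cKO and 37.3 CPM in control members, and Anxa3, an annexin, had 323 and 129 CPM. Chmp2a (an ESCRT-III subunit), Mettl25, Ndufs7 (a subunit of respiratory complex I), Afg3l1 (a mitochondrial protease subunit), Aup1 and Pdzk1ip1 lay between 1.21 and 1.36 on the log2 scale, each on 23 to 32 UMIs in DNp63cKO. Pdzk1ip1 turned to -0.44 among nuclei with 4 or more epithelial markers and Ndufs7 to -0.98 in the Y-linked, Xist-free nuclei. Fam13a, Ehhadh and Eml5 met the same rule, but Fam13a and Ehhadh rested mostly on a single nucleus and Eml5 in part. A DNp63cKO nucleus of 3523 UMIs held 54 of the 63 Fam13a UMIs and 16 of the 26 Ehhadh UMIs, and another of 1788 UMIs held 12 of the 38 Eml5 UMIs. Without the nucleus richest in each gene, the log2 ratios were -0.52 for Fam13a, 0.29 for Ehhadh and 0.82 for Eml5, and only Eml5 stayed past 1.5-fold. Of the 14 genes of this rule, 9 were also higher in DNp63cKO among uroplakin-high nuclei and 11 among basal-marked nuclei. Of all 481 genes over 1.5-fold higher in members, 66.9% and 73.2% were so, and the nuclei came from the same 2 libraries.

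On the other side, Ankfn1, a gene of an ankyrin and fibronectin repeat protein, had 80.8 CPM in DNp63cKO members and 359 CPM in control members, a log2 ratio of -2.08 (-2.86 to -1.52). It was as far down in uroplakin-high nuclei, with a log2 ratio of -2.13, and it kept a ratio between -2.81 and -1.73 under the 16 alternatives. Kbtbd11, a BTB and kelch domain protein, had 50.04 CPM in DNp63cKO and 220 CPM in control, a log2 ratio of -2.03. Efs, an adaptor of the Cas family that Src kinases phosphorylate, had 19.2 and 120 CPM, and Mettl27, a methyltransferase-like protein, 23.1 and 122 CPM. Epb41l3, a band 4.1 membrane skeleton protein, had 42.3 CPM in DNp63cKO and 161 CPM in control. The remaining genes named here by rule were Sprr2f, Tfcp2, Eaf1, Man2c1, Ikbke, Upp2, Hr, Ier5 and Enpp1. Of all 14, 11 had 6 or fewer UMIs in DNp63cKO, so their ratios are wide, such as -2.70 (-9.10 to -1.24) for Sprr2f on 1 UMI. All 14 were lower in DNp63cKO among basal-marked nuclei too, and 13 among uroplakin-high nuclei, while of all 768 genes over 1.5-fold lower in members 70.8% and 74.7% were so. Of the 14, 10 were past 1.5-fold among basal-marked and 8 among uroplakin-high nuclei. All these nuclei came from the same 2 libraries.

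**Figure D2:**
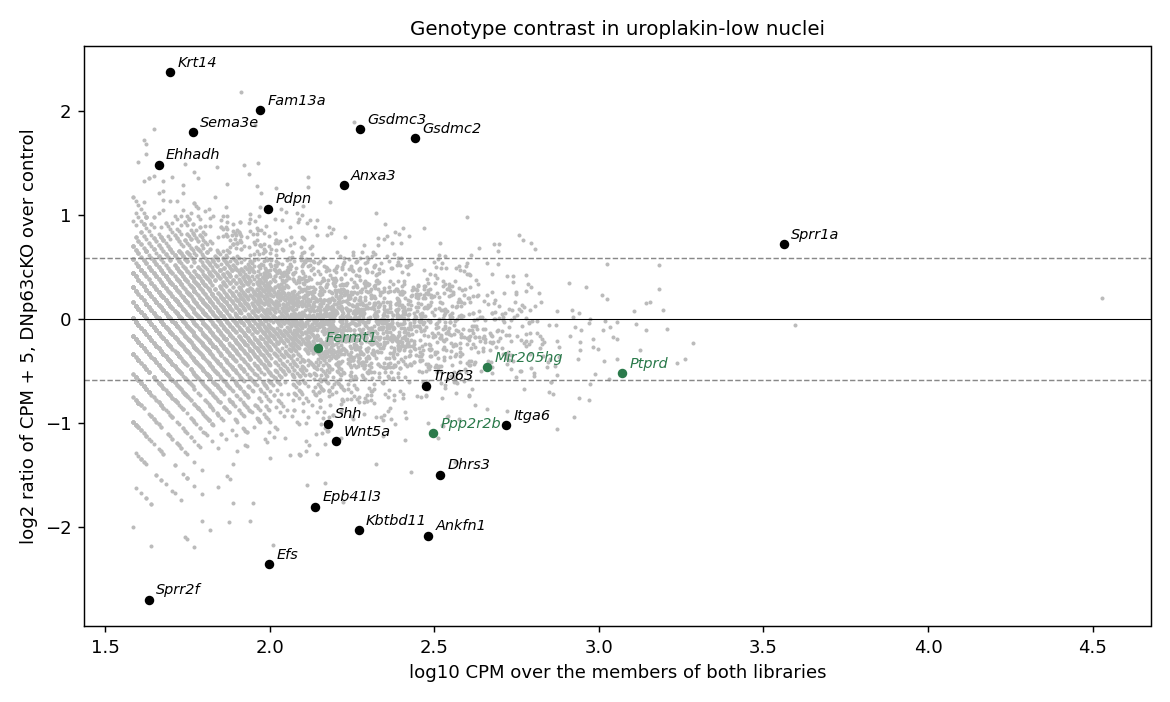
Each point is 1 of the 6702 measured genes in uroplakin-low nuclei, with its CPM over both libraries (log10, horizontal) and its log2 ratio of CPM + 5, DNp63cKO over control (vertical). Green points are the 4 marker genes, black points other genes named in the text, and dashed lines mark 1.5-fold. Krt14 lies at 2.38 and Ankfn1 at -2.08, and the spread widens towards low levels.

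Basal-layer genes outside the choice did not move one way. Of the 12 measured, 2 were over 1.5-fold higher, 3 lower, and the median log2 ratio was -0.22. For this list and those below, the shares over all measured genes were 7.18% higher and 11.5% lower. No list was tested against these shares. Itga6, the integrin α6 chain that anchors basal cells to laminin, had 285 CPM in DNp63cKO and 583 CPM in control members, a log2 ratio of -1.02 (-1.40 to -0.68). Cdh3, P-cadherin, had 46.2 and 89.0 CPM. Pdpn, podoplanin, ran the other way with Krt14, with 173 CPM in DNp63cKO and 80.4 CPM in control, a log2 ratio of 1.06 (0.55 to 1.65). The ratio of Pdpn depended on the nuclei taken. It was -0.01 in nuclei with 0 UMIs of the basal sum and 1.73 (1.12 to 2.45) in those with 1 or 2. Among nuclei with Y-linked and no Xist UMIs, 0 UMIs in DNp63cKO stood against 14 in control, which gave -4.50 through the added 5 CPM. Bcam, Itgb1, Dst, Cd44 and Egfr lay between -0.46 and 0.44.

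The kindlin and integrin genes, listed around Fermt1, counted 15 measured, of which 1 was over 1.5-fold higher and 2 lower, with a median of 0.12. Itga2, the integrin α2 chain, had 30.8 CPM in DNp63cKO and 72.8 CPM in control, on 8 DNp63cKO UMIs. Tln2, talin-2, had 42.3 and 70.9 CPM. Fermt2, kindlin-2, had 115 CPM in DNp63cKO and 68.0 CPM in control, but stood at 356 and 402 CPM in mesenchyme-marked nuclei. Its ratio turned to -3.36 among nuclei with Y-linked and no Xist UMIs. These were only 32 DNp63cKO nuclei with 40262 UMIs in all, so the added 5 CPM weighs heavily in that value. Vcl, Ilk, Parva, Ptk2, Pxn, Tln1, Lims1, Itgav, Itgb5 and Itgb6 stayed within 1.5-fold.

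Of the 9 receptor tyrosine phosphatases measured around Ptprd, 0 were over 1.5-fold higher and 3 lower, with a median of -0.37. Among all measured genes 11.5% were lower, the share beside which this list and the next stand. Ptpru had 46.2 CPM in DNp63cKO and 111 CPM in control (log2 ratio -1.18, -2.26 to -0.41). Ptprk had 185 and 314 CPM, and Ptprf, the LAR phosphatase of cell contacts, 400 and 642 CPM. Ptprm, Ptprj and Ptpra lay between 0.13 and 0.16. Of the 9 PP2A subunits measured around Ppp2r2b, 2 were lower, Ppp2r2b and Ppp2r5a (34.6 CPM in DNp63cKO and 63.2 CPM in control, log2 ratio -0.78, -2.06 to 0.14). The scaffold and catalytic subunits Ppp2r1a, Ppp2r1b, Ppp2ca and Ppp2cb lay between -0.22 and 0.39.

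Genes that p63 is known to act on in skin counted 12 measured, 1 over 1.5-fold higher and 3 lower, with a median of -0.28. Ripk4, a kinase of epidermal differentiation, had 131 CPM in DNp63cKO and 268 CPM in control, a log2 ratio of -1.01 (-1.59 to -0.52). Jag1, a Notch ligand, had 53.9 and 93.8 CPM, and Frem2, a basement membrane protein, 142 and 84.3 CPM. Sfn, Perp, Fras1, Fgfr2 and Satb1 lay between -0.29 and 0.17.

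Of the 10 urothelial transcription factors measured, 0 were over 1.5-fold higher and 2 lower, with a median of -0.39. The shares over all measured genes were 7.18% and 11.5%. Rxra, a partner of retinoid and PPAR receptors, had 80.8 CPM in DNp63cKO and 185 CPM in control, a log2 ratio of -1.14 (-1.92 to -0.54). Tbx2 had 273 and 416 CPM, though its ratio turned to 0.10 among nuclei with Y-linked and no Xist UMIs. Gata3, a regulator of urothelial differentiation, had 531 CPM in DNp63cKO and 734 CPM in control, Pparg 662 and 770 CPM, and Klf5 323 and 439 CPM. Foxa1 and Tbx3 lay at -0.49 and -0.34, and Grhl1 and Grhl3 at 0.08 and 0.30.

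Superficial-layer genes were mixed, with 1 of 12 measured over 1.5-fold higher, 0 lower and a median of -0.13. Sprr1a, a small proline-rich protein of the cell envelope, had 5328 CPM in DNp63cKO members and 3231 CPM in control members, a log2 ratio of 0.72 (0.63 to 0.81). It had 1652 and 1130 CPM in mesenchyme-marked nuclei. Psca had a log2 ratio of 0.55 (0.23 to 0.87) and Snx31 of 0.30 (0.06 to 0.54), while Sptssb, a subunit of serine palmitoyltransferase, had -0.54 (-0.84 to -0.27). Krt7, a simple epithelial keratin, had 558 CPM in DNp63cKO and 950 CPM in control, a log2 ratio of -0.76 (-1.03 to -0.51), whereas Krt8 lay at 0.08. Of the 13 genes of the stratified envelope list 2 were measured, Sprr1a and Ivl, involucrin, which had 34.6 CPM in DNp63cKO and 83.3 CPM in control.

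Cell-contact genes included 12 adherens junction and polarity genes, 0 over 1.5-fold higher and 3 lower, with a median of -0.43. Nectin1 had 112 CPM in DNp63cKO and 214 CPM in control members, a log2 ratio of -0.91 (-1.55 to -0.38), and -3.20 in uroplakin-high nuclei. Pard3, a polarity scaffold, had 243 and 400 CPM. Of 10 desmosome genes 0 were higher and 1, Ppl, was lower (115 and 196 CPM). Of 8 tight junction genes 2 were higher, Cldn8 with 212 CPM in DNp63cKO and 109 CPM in control and Tjp3 with 92.4 and 52.7 CPM, and 0 were lower. Cldn8 turned to -1.07 among nuclei with 4 or more epithelial markers.

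Of 10 Notch genes measured, 0 were over 1.5-fold higher and 4 lower, with a median of -0.37. Over all measured genes 7.18% were higher and 11.5% lower, here and for the lists that follow. Notch1 had 50.04 CPM in DNp63cKO and 102 CPM in control, a log2 ratio of -0.96 (-1.99 to -0.20), and Notch3 had 50.04 and 95.7 CPM. Nrarp, a target of Notch that damps it, had 15.4 and 52.7 CPM on 4 DNp63cKO UMIs, and Hes1 lay at 0.38. Shh, the hedgehog ligand that the urothelium sends to the ureter mesenchyme, was the 1 of 6 hedgehog genes past 1.5-fold, with 80.8 CPM in DNp63cKO and 168 CPM in control (log2 ratio -1.01, -1.78 to -0.39). Wnt5a, a WNT ligand, had 77.0 and 180 CPM (log2 ratio -1.17, -1.97 to -0.56), and it was lower together with Tcf7l2 among 7 WNT genes. Bmp2 and Smad6 were the 2 lower of 11 FGF, BMP and TGFB genes. Dhrs3, which reduces retinaldehyde, had 131 CPM in DNp63cKO and 379 CPM in control, a log2 ratio of -1.50 (-2.08 to -1.03).

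The other lists held few genes past 1.5-fold. Of 14 DNA replication genes 0 were higher and 2, Tyms and Mcm7, lower. Of 4 mitosis genes left after cycling nuclei were dropped, 1, Kif11, was higher. For p53 targets (9 measured), immediate early and heat shock genes (8), nephric and collecting duct genes (5) and EGF ligands and receptors (4), 0 genes were past 1.5-fold in either direction.

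**Figure D3:**
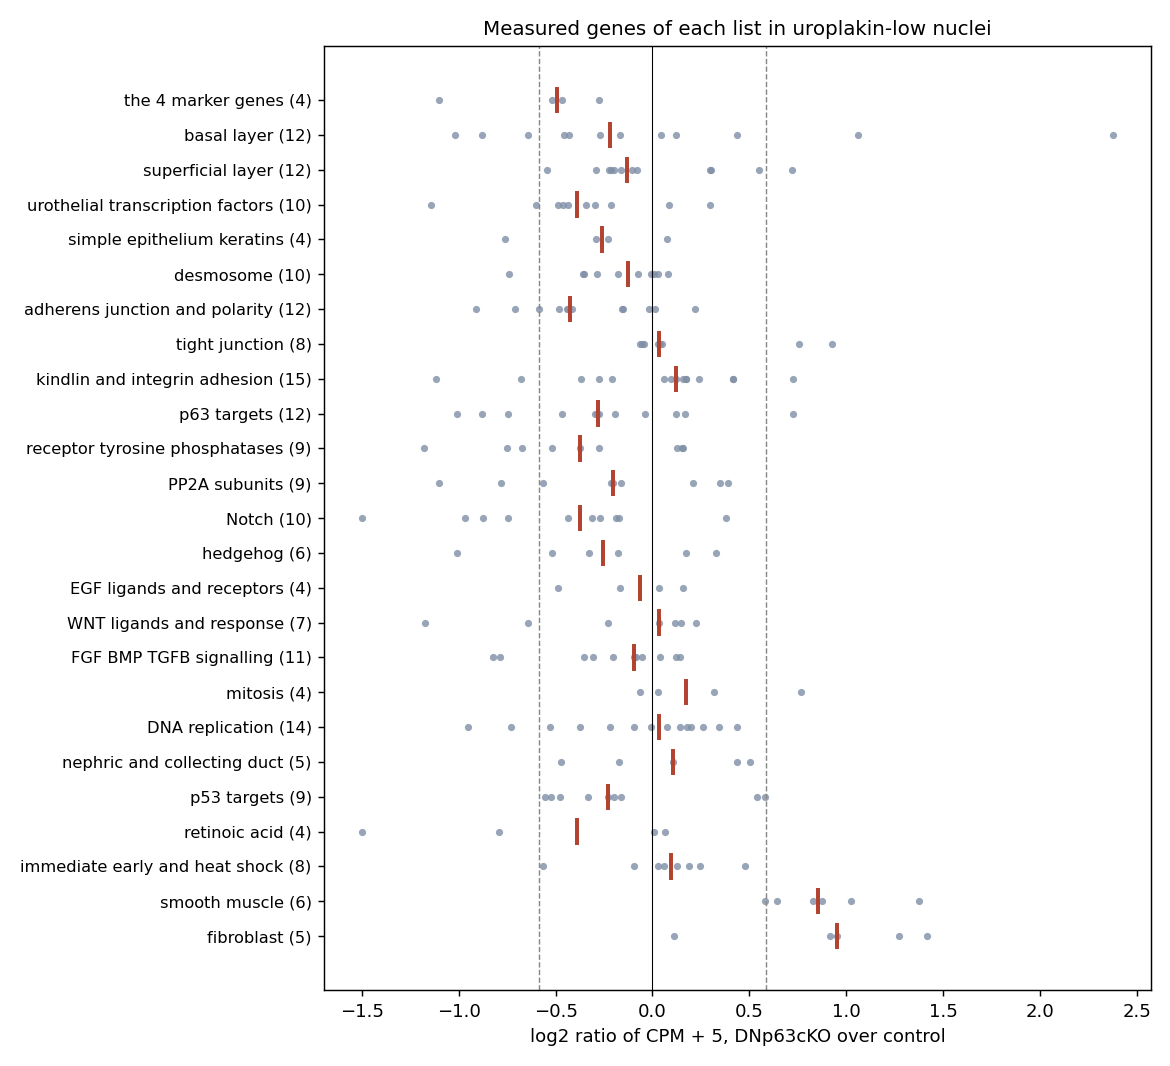
Log2 ratio of CPM + 5, DNp63cKO over control, of each measured gene (points) and the median (red bars) of the lists with 3 or more measured genes, whose number is in brackets; dashed lines mark 1.5-fold. The medians of the epithelial lists lie between -0.49 for the 4 marker genes and 0.17 for mitosis, and those of smooth muscle (0.85) and fibroblast (0.95) genes lie to the right of all of them.

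Of the 9 lists of markers of other cell types, 8 summed to more in the DNp63cKO members, and the glia list summed to less. The 8 smooth muscle markers summed to 1293 CPM in DNp63cKO and 715 CPM in control members, against 879 and 479 CPM in uroplakin-high nuclei and 7304 and 8370 CPM in mesenchyme-marked nuclei. Of the 6 measured, 5 were over 1.5-fold higher in DNp63cKO members, among them Acta2 at 466 and 252 CPM. The 8 fibroblast markers summed to 1101 CPM in DNp63cKO and 563 CPM in control, with 4 of 5 measured over 1.5-fold higher, such as Postn at 250 and 101 CPM. None of these 16 markers was at 0. Erythroid markers summed to 204 and 62.2 CPM, endothelial markers to 150 and 83.3 CPM, macrophage markers to 57.7 and 14.4 CPM, neuron markers to 73.1 and 7.66 CPM and glia markers to 19.2 and 26.8 CPM. Ptprc and Cd74 of the macrophage list and Tubb3 and Stmn2 of the neuron list were at 0 in both libraries. The mesothelium list summed to 308 and 206 CPM, of which Msln, also high in uroplakin-high nuclei (575 and 69.2 CPM), gave 200 and 80.4 CPM. Upk3b, its other measured gene, had 108 CPM in DNp63cKO and 124 CPM in control, a log2 ratio of -0.20. Lrrn4 and Muc16 were at 0 in both libraries and Wt1 at 0 in DNp63cKO. The nephron list summed to 115 and 6.70 CPM, and 25 of its 26 Slc34a1 UMIs in DNp63cKO came from 1 nucleus of 2335 UMIs. Of the 481 genes higher in DNp63cKO members, 31.2% stood higher in mesenchyme-marked nuclei than in members in both libraries, and 14.6% of the 768 lower genes did, against 22.4% of all measured genes. With free RNA subtracted, 768 genes were higher and 1119 lower, and Krt14 had a log2 ratio of 2.51, Gsdmc2 1.79, Ankfn1 -2.04, Ppp2r2b -1.03 and Ptprd -0.45. The subtraction did not remove the fibroblast difference. The median log2 ratio of that list was 1.63 after it and 0.95 before, with Lum at 3.40, Postn at 2.37 and Dcn at 0. The smooth muscle median became 0, but the estimate used these same markers and counts that fell below 0 were set to 0. The part of these other cell types in the remaining differences was not tested.

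The members were not uniform along their own uroplakin share. Ranked together and cut into 3 bins of rising uroplakin share, they fell into 57, 72 and 94 DNp63cKO nuclei and 344, 327 and 306 control nuclei. Ppp2r2b was lower at higher uroplakin share in each library, at 224, 186 and 112 CPM in DNp63cKO and 461, 330 and 272 CPM in control, and was lower in DNp63cKO in every bin. Mir205hg had 501, 419 and 224 CPM in DNp63cKO and 461, 490 and 504 CPM in control, so its log2 ratio ran from 0.12 (-0.51 to 0.70) in the lowest to -1.15 (-1.82 to -0.57) in the highest bin. Itga6 was lower in DNp63cKO by about the same amount in each, with log2 ratios of -0.90, -1.15 and -1.06.

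Krt14 was higher in DNp63cKO mainly in the lower bins, with 259, 233 and 34.5 CPM in DNp63cKO and 32.9, 28.001 and 14.2 CPM in control. Pdpn had 328, 175 and 94.8 CPM in DNp63cKO and 92.8, 92.4 and 56.6 CPM in control. Gsdmc2 ran the other way, with log2 ratios of 0.72 (-0.04 to 1.45), 1.49 (0.92 to 2.11) and 2.32 (1.88 to 2.83). Psca had log2 ratios of 0.08, -0.02 and 0.85 (0.42 to 1.29), and Snx31 of -0.49, -0.12 and 0.57 (0.25 to 0.89). Krt14 and Pdpn were thus furthest above control at the low end of the range in CPM, and Gsdmc2, Psca and Snx31 at the high end. The uroplakin shares of the highest bin also differed, with medians of 0.502% in DNp63cKO and 0.479% in control, and no difference between bins was tested.

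**Figure D4:**
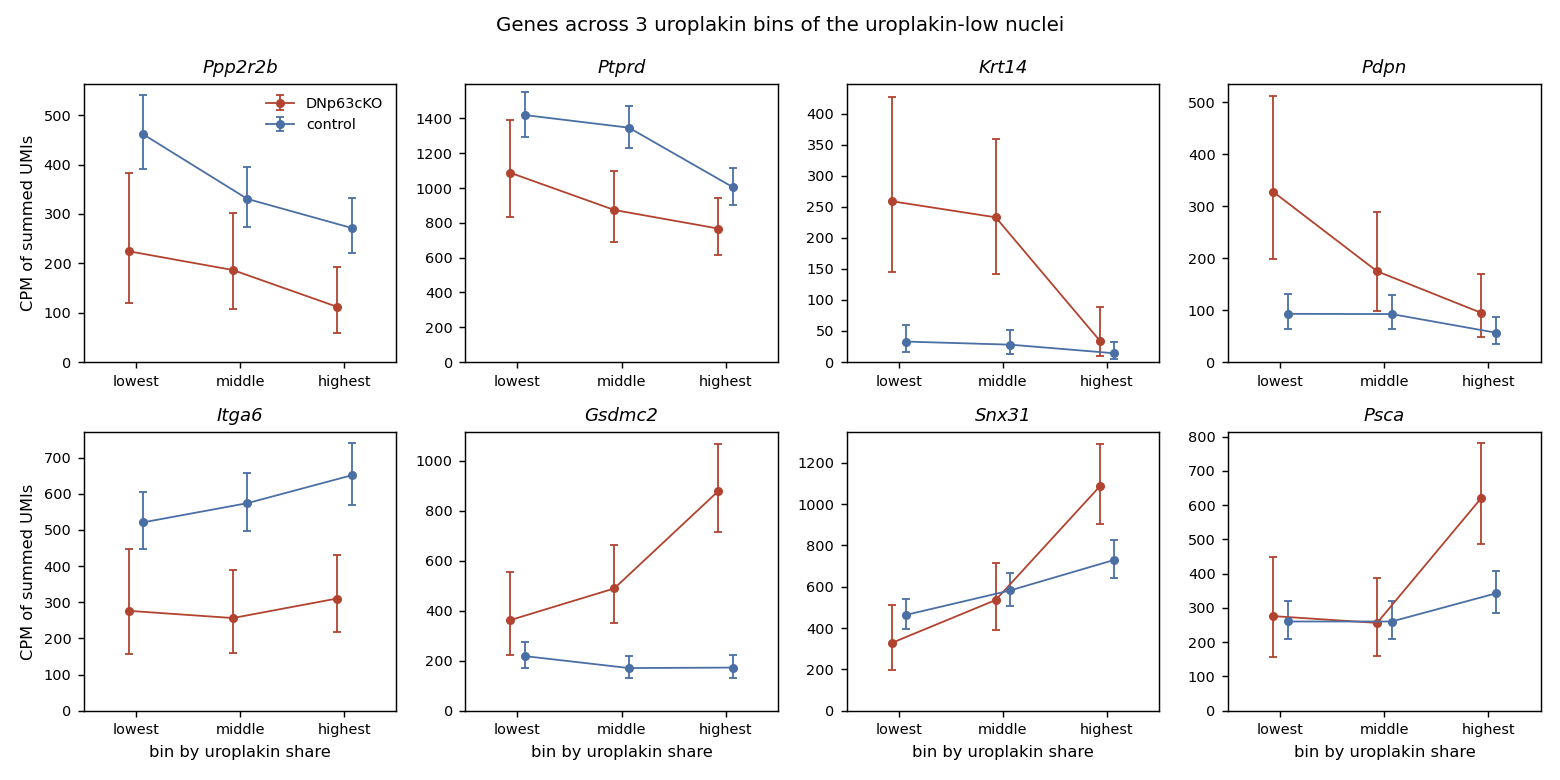
CPM of 8 genes in 3 bins of the uroplakin-low nuclei by rising uroplakin share (horizontal axis), DNp63cKO in red and control in blue, with exact 95% Poisson intervals. Krt14 is at 259, 233 and 34.5 CPM in DNp63cKO, and Gsdmc2 in DNp63cKO runs opposite to it and is highest in the highest bin.

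Both libraries held UMIs of Y-linked genes and of Xist, the RNA of the inactive X chromosome, and a nucleus could be assigned by them only in part. Y-linked and no Xist UMIs were found in 14.3% of DNp63cKO members (10.03 to 19.6%) and 12.2% of control members (10.2 to 14.4%), and Xist but no Y-linked UMIs in 45.7% (39.1 to 52.5%) and 57.7% (54.6 to 60.8%). Ppp2r2b had a log2 ratio of -0.16 (-1.09 to 0.69) among the Y-linked nuclei and -0.88 (-1.62 to -0.25) among the Xist nuclei, and Krt14 of 3.82 (1.54 to 9.99) and 1.81 (0.89 to 2.996). Ptprd and Itga6 were lower in both classes, with log2 ratios of -0.61 and -0.81 for Ptprd and -0.75 and -1.09 for Itga6. Differences between these classes were not tested.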

How the data were processed

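Single-nucleus libraries of frozen ureter nuclei were made with a microwell kit, per the labels' protocols. The files hold raw UMI counts for each gene in each nucleus as the authors deposited them, without normalization. Per the submitters' processing notes, the tools were STARsolo, STAR 2.7.11a, Seurat 4.0.5 and R 4.0.5 with build mm10. What each did, which annotation and barcode filter were used, and whether introns and strand counted is not given in the sources used here. Reads from a gene and an antisense partner therefore cannot be told apart.

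A nucleus was used if it had 300 genes or more and no more than 5% mitochondrial UMIs, which left 5491 of 5528 DNp63cKO and 8889 of 9062 control nuclei. The members and the gene lists were chosen with earlier results of these data known. The mesenchyme-marked group (2 or more mesenchymal or endothelial genes, at most 1 epithelial gene; 1539 and 1728 nuclei) was chosen after seeing the data. Raw UMIs were summed over the nuclei of a group in each library and divided by their total to give CPM, and log2 ratios are of CPM + 5, DNp63cKO over control. Intervals are exact at 95% (Poisson for CPM, Clopper-Pearson for shares, conditional binomial for ratios, the last without the added 5 CPM; that of the difference in shares joins both Clopper-Pearson intervals) and cover counting error only. A gene counted as measured had 50 or more UMIs over the members, and as higher or lower when past 1.5-fold. Genes were named by rule: the markers, Trp63 and the genes of the choice; the 14 highest and 14 lowest ratios among measured genes that reached 50 CPM in a library and were at least as high in members as in nuclei outside the epithelial rule; the 12 genes furthest above and below uroplakin-high nuclei in both libraries; up to 4 genes of each list with the largest ratios, and every gene of 7 lists. Mitochondrial, haemoglobin, sex-linked and unnamed genes were left out of the ranking. Some genes that met these rules are not reported here. Scrublet's automatic threshold called 0 nuclei in both libraries and so had not worked; leaving out its top 5% of scores was an alternative. Of 32589 gene IDs, 32522 were found in GENCODE M21. Alternatives covered the nucleus filter, the choice of members, depth, free RNA, scaling (edgeR TMM, a count tool used here only for its scaling factors), pseudocounts and count minimums. The calculations were checked on simulated data. Python 3.11.15, numpy 2.4.6, scipy 1.17.1 and scanpy 1.11.5 were used.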

Additional observations from a re-analysis of the deposited data

Results flagged for a closer look

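Among the genes named by rule, 2 stood higher in DNp63cKO uroplakin-low nuclei and lower in DNp63cKO uroplakin-high nuclei, with counting intervals that excluded an equal level in both groups. Afg3l1, a mitochondrial protease subunit, had a log2 ratio of 1.32 (0.65 to 2.21) in uroplakin-low nuclei and -0.62 (-1.30 to -0.09) in uroplakin-high nuclei. Ehhadh, an enzyme of peroxisomal fatty acid oxidation, had 1.48 (0.83 to 2.40) and -0.73 (-1.54 to -0.12), but 0.29 in uroplakin-low nuclei without the nucleus richest in it. The difference between the groups of nuclei was not tested for either gene, since each group has 1 library.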

How the results depend on the processing

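The difference in the share of epithelial nuclei was negative under all 8 alternatives, at -18.0 points with 4 epithelial markers and no other, -4.60 with the median set within each library, -9.77 with the basal drop at 2 UMIs and -17.7 in nuclei with Y-linked and no Xist UMIs. The counts of genes over 1.5-fold higher and lower were 176 and 399 with 4 epithelial markers, 45 and 90 in Y-linked nuclei (where fewer genes reached 50 UMIs), 1077 and 1406 with 20 or more UMIs, 3004 and 2745 with no minimum (more genes higher than lower), and 251 and 440 in members with no basal UMI, an alternative added after seeing the data. The counts with no minimum are tied to the unequal depth of the libraries. Subtracting free RNA gave 768 higher genes, and a pseudocount of 20 gave 505 lower genes. Directions turned for the list medians of simple keratins (0.0113, with 4 epithelial markers), p63 targets (0.00208) and hedgehog genes (0.0601), both with the lowest of 3 uroplakin bins of the epithelium taken in place of the median, and retinoic acid genes (0.0451, Y-linked nuclei). Single genes turned with 4 epithelial markers (Fam13a -0.31, Pdzk1ip1 -0.44, Cldn8 -1.07, Frem2 -0.11, Notch3 0.16, Kif11 -0.31), in Y-linked nuclei (Ndufs7 -0.98, Pdpn -4.50, Tbx2 0.10, Ppl 0.0252, Fermt2 -3.36, Notch3 0.49, Tcf7l2 0.10, Smad6 0.98, Kif11 -0.26, Mcm7 0.87, Rarg 1.05, Col1a1 -0.0111), with a 500-gene filter (Fam13a -0.63), without the richest nucleus (Fam13a -0.52), with no basal UMI (Fam13a -1.11, Pdpn -0.00853), in that lowest bin (Jag1 0.0272) and with a median per library (Nectin3 0.0417). The turns with 4 epithelial markers rest on 39 DNp63cKO members and those in Y-linked nuclei on 32, where the added 5 CPM weighs heavily. Of 2608 alternative values of 163 genes, 2404 stayed within the counting interval of the reported ratio. Several alternatives reused the same members and counts, and many intervals were wide, so this number is no measure of stability. The cause of these shifts was not tested. No paired analysis was possible because each group has 1 library. Depth limits the DNp63cKO values: 259778 UMIs lie behind them, and a gene at 50 CPM there rests on 13 UMIs.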
